A study of Mus musculus with 64 samples.

Results

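The comparison described here sets autosomal microRNAs (miRNAs) of male mouse liver against those of female mouse liver. It used 10 liver small RNA libraries, 5 from males and 5 from females, out of 64 samples in the series. Of these 64, 41 were small RNA libraries and 21 were small RNA libraries of liver. All the mice were of strain 129S6/SvEvTac, and all received inorganic arsenic (iAs) at 400 ppb for 4 weeks, so each difference below is one between sexes among exposed animals. No unexposed group was analysed here, and the labels give no age. The 10 libraries came from wild-type (WT) mice, whose AS3MT, the methyltransferase that detoxifies arsenic, is the mouse ortholog. A further 6 male and 5 female liver libraries came from humanized mice, which carry the human ortholog of AS3MT, and served as other animals under the same contrast. Each library carries a different animal tag within the liver set. Libraries 1 and 2 of each WT sex have one form of name and libraries 3 to 5 another, which is read here as 2 sequencing runs.

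MiRNAs are short RNAs cut from hairpin precursors. Each hairpin can yield a product from its 5′ arm (5p) and from its 3′ arm (3p), and the bases near the 5′ end, called the seed, pair with target messenger RNAs. A product whose first base is shifted carries a different seed, so the deposited table lists start-shifted products as features of their own, and here "+1" means a start listed as shifted by 1 base. Mouse liver is a classically sex-dimorphic organ, in which the pulsatile growth hormone pattern of males and the near-continuous pattern of females set many hepatic genes to different levels.

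The table listed 1941 features, of which 1684 were autosomal, 166 were on the X chromosome and 91 could not be placed. A mean signal of at least 10 over the 21 liver libraries was reached by 714 autosomal features. They stand for 359 mature products of 237 hairpins, counted by hairpin and arm, so copies with the same mature sequence are counted separately. The other 970 autosomal features did not reach that mean, and 597 of them were listed at 0 in every liver library. A feature is termed called when its Benjamini-Hochberg adjusted p in limma, a linear model fitted across all 837 tested features with run as a covariate, was under 0.05. Differences are males minus females on the scale of log2(normalized signal + 1). For features of low signal they depend on the value of 1 added, and fewer than 10 reads are listed as 0, so such differences can be understated or overstated.

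In WT liver 18 autosomal features from 15 hairpins were called, 10 higher and 8 lower in males. They were 2.52% of the 714 autosomal features tested and 2.15% of all 837. The features higher in males were miR-592-5p and its +1 form, miR-149-5p, miR-541-5p, 3 forms of miR-21-5p, both copies of miR-125b-5p, and miR-22-5p. The features lower in males were miR-1247-5p, miR-137-3p, miR-31-5p, miR-3105-3p, miR-107-3p, miR-674-5p, miR-130a-3p and miR-28-5p. The median difference over all tested features was 0.0084. None of the 64 tested X-linked features was called, and 3 of them had an unadjusted limma p under 0.05, against 165 of all 837. WT male 1 stood apart from the other libraries, with far more signal of fibroblast and striated muscle miRNAs and more of the epithelial miR-200 family. Without it 4 features were called, namely both forms of miR-592-5p, miR-149-5p and miR-22-5p, and all 18 differences kept their sign.

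The mature sequences of the called miRNAs are shown so that their seeds at the annotated start can be compared. They are given 5′ to 3′ as in RefSeq for GRCm38.p6, with the seed (bases 2 to 8) in capitals. The genes lie on chromosome 6 for miR-592, 1 for miR-149, 12 for miR-541 and miR-1247, 11 for miR-21 and miR-22, 9 and 16 for the copies of miR-125b, 16 for miR-28, 2 for miR-130a and miR-674, 19 for miR-107, 7 for miR-3105, 4 for miR-31 and 3 for miR-137. Among the 10 features higher in males, miR-592-5p +1, miR-21-5p +1 and miR-21-5p +2 have a shifted start, so the capitals do not mark their seeds. For miR-592 the +1 form carried nearly all of the signal. The seeds of these shifted forms were not computed. The 10 features higher in males are forms of these annotated products.
miR-592-5p: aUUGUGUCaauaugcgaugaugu
miR-149-5p: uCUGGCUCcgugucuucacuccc
miR-541-5p: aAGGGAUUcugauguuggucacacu
miR-21-5p: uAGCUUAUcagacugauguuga
miR-125b-5p: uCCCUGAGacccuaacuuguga
miR-22-5p: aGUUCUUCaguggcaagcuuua

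The 8 features lower in males carry these.
miR-1247-5p: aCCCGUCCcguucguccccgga
miR-137-3p: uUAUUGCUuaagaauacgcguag
miR-31-5p: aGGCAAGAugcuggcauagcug
miR-3105-3p: aCUGCUUAugagcuugcacucc
miR-107-3p: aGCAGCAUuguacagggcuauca
miR-674-5p: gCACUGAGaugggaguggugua
miR-130a-3p: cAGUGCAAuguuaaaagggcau
miR-28-5p: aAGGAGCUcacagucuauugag
Apart from the identical copies of miR-125b-5p, no 2 of the called miRNAs share a seed at the annotated start.

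**Figure D1:**
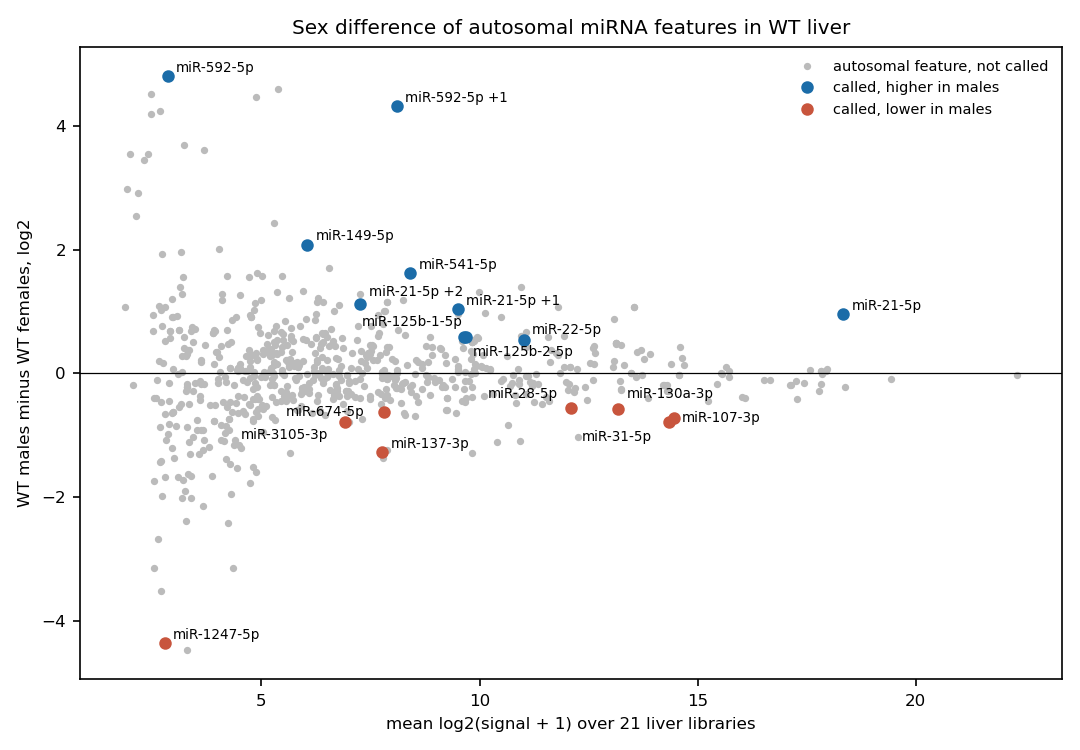
Each point is an autosomal feature, with its mean log2(signal + 1) over 21 liver libraries on the x axis and the difference between WT males and WT females (log2) on the y axis. The 18 called features are coloured, and they run from miR-592-5p at 4.81 to miR-1247-5p at -4.35, with miR-21-5p the most abundant of them.

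MiR-592 lies within Grm8, a metabotropic glutamate receptor gene. Its +1 form carried nearly all of its signal. That form was listed at 732, 632, 2180.2, 1416 and 1963 in WT males 1 to 5. In WT females 1 to 5 it was at 32.0, 324, 28.8, 40.9 and 67.2. Every male was above every female, and WT female 2 was the one female library above 100. The difference was 4.31 ± 0.52 (SE), a 19.9-fold higher level in males with a 95% interval of 9.28 to 42.5, and the adjusted p was 9.7e-05 in limma. The annotated form was at 28.9 to 74.2 in males and was listed at 0 in 4 females, with 13.3 in WT female 2. A library lists 0 where a feature had fewer than 10 reads, so these zeros are values below a floor of 6.65 to 16.4 signal units across the WT libraries, and the fitted difference of 4.81 for this form depends on the value of 1 added.

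MiR-149-5p, from a hairpin inside the glypican gene Gpc1, stood at 64.6, 282.7, 93.0, 91.7 and 174 in WT males. In WT females it stood at 34.1, 27.8, 38.6, 27.5 and 17.3. The groups did not overlap. The level in males was 4.23-fold that in females (95% interval 2.48 to 7.21, adjusted limma p 0.0052). MiR-149 and miR-592 kept their calls when any 1 of the 10 WT libraries was left out, and no other called feature did. With the spread estimated from the 10 WT libraries alone, none was called, and the adjusted limma p of both forms of miR-592 and of miR-1247-5p was then 0.066.

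MiR-541-5p comes from the Dlk1-Dio3 imprinted domain on chromosome 12, a large cluster of miRNAs expressed from the maternal chromosome. Its signal was 863, 301, 1068, 241 and 522 in WT males and 157, 148, 225, 127 and 185 in WT females. All males were above all females, with WT male 4 only just so. The difference was 1.63 ± 0.39 (SE, adjusted limma p 0.029), and without WT male 1 it was 1.42 with an adjusted p of 0.116. WT males 1 and 3, the highest for miR-541-5p, also had the highest sums of striated muscle markers, whose part in the difference was not tested.

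MiR-21-5p is an abundant miRNA induced in many tissues by injury, inflammation and growth signals. Its mean over the 10 WT livers, 434075, was the third highest of the tested autosomal features. In WT females alone miR-22-3p had a higher mean, 389824 against 270415. The signal of miR-21-5p was 294441 and 250264 in WT males 1 and 2, and 1023357, 647831 and 772780.4 in WT males 3 to 5. In WT females it was 197341, 289556, 315747, 272424 and 277008. The 3 males of the second run were above every female, while the 2 males of the first run lay within the range of the females. The difference over both runs was 0.96 ± 0.23 (SE, adjusted limma p 0.029). Within the first run it was 0.18 and within the second 1.48. Its forms starting at +1 and +2 were called too, at 1.04 and 1.11, and showed the same split, with 0.32 and 0.35 in the first run and 1.52 and 1.63 in the second. A sex-by-run term, added after the data had been seen and fitted in the 10 WT libraries, gave an unadjusted p of 0.0032 and an adjusted p of 0.43 for miR-21-5p in limma. The summed signal of erythroid markers was 50631, 13126, 29716, 12368 and 43464 in WT males 1 to 5. In WT females it was 10011 to 17759. The part of erythroid cells in the difference of miR-21-5p was not tested.

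The 2 loci of miR-125b, on chromosomes 9 and 16, encode the same mature 5p sequence, so reads cannot be assigned to either and their rows are not independent. MiR-125b-5p is known as a conserved regulator of proliferation and differentiation. The row of the chromosome 9 copy was at 1179, 785, 989.6, 887 and 1071 in WT males and 646, 816, 631, 559 and 604 in WT females. The groups overlapped through WT female 2, which lay above WT male 2. The difference was 0.59 ± 0.14 (SE, adjusted limma p 0.029), and 0.51 without WT male 1, with an adjusted p of 0.116. On chromosome 16 the neighbouring miR-99a-5p showed the same difference, 0.59 ± 0.17, and missed the threshold at an adjusted p of 0.078, while let-7c-1-5p of that cluster was at -0.13 ± 0.13.

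MiR-22-5p is the less abundant arm of a hairpin whose 3p arm is a major liver miRNA. The 5p product was at 2358, 2435, 2557, 2434 and 2383 in WT males and 2151, 2120.2, 1389, 1488 and 1413 in WT females. The males were nearly equal, and the 2 females of the first run were closer to them than were the 3 of the second. The difference was 0.54 ± 0.11 (SE, adjusted limma p 0.025), with 0.17 within the first run and 0.78 within the second. The 3p product was not called, at -0.21 ± 0.13 (adjusted p 0.38).

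Among the features lower in males, miR-1247-5p had the lowest level. This miRNA is encoded beside Dio3 at the far end of the Dlk1-Dio3 domain. It was listed at 0 in 4 WT males and at 9.52 in WT male 4. In WT females it was at 14.9, 19.4, 41.3, 45.4 and 57.9. All females were above all males, but the male values were below or just above the floor of 10 reads, so the fitted difference of -4.35 ± 1.03 (SE, adjusted limma p 0.029) depends on the value of 1 added before the logarithm. With 10 added it was -1.90.

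MiR-137-3p, best known from neurons, was at 56.5, 104, 272, 151 and 161 in WT males and at 146, 398, 338, 384 and 430.2 in WT females. WT female 1 fell within the range of the males. The level in females was 2.41-fold that in males (95% interval 1.58 to 3.68, adjusted limma p 0.029).

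MiR-107-3p, an intronic miRNA of the pantothenate kinase gene Pank1 that has been linked to hepatic insulin sensitivity, was at 11628, 20559, 18033, 21451 and 17448 in WT males. In WT females it was at 26629, 20033, 30705, 37698 and 31916. WT female 2 overlapped with the males, and WT male 1 was the lowest library. Females had 1.65-fold the level of males (95% interval 1.28 to 2.12, adjusted limma p 0.029).

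MiR-31-5p, a miRNA of epithelial cells, was at 9761, 19280.3, 15885, 20269 and 14301 in WT males and at 24612, 21385, 22993, 32992 and 33143 in WT females. MiR-3105-3p was at 72.7, 89.4, 80.8, 104 and 80.5 in males and 135, 134, 155, 147 and 165 in females. MiR-674-5p was at 159, 185, 159.6, 135 and 166 in males and 284, 225, 242, 212 and 275 in females. For these 3 miRNAs every female was above every male, and the differences were -0.79 ± 0.20, -0.79 ± 0.19 and -0.62 ± 0.14 (SE) with adjusted limma p of 0.047, 0.032 and 0.029.

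MiR-130a-3p belongs to a family known for its role in haematopoiesis and lipid handling. It was at 7260.2, 8606, 6289, 9210.2 and 6284 in WT males and 9429.5, 8985, 12561, 12916 and 11906 in WT females. MiR-28-5p, from an intron of Lpp, was at 2333, 3275, 4726, 4794 and 3554 in males and 4798, 3219.7, 6780.4, 6911 and 5977 in females. In both, WT female 2 lay within the males, and the differences were -0.57 ± 0.15 and -0.56 ± 0.12 (SE) with adjusted limma p of 0.049 and 0.029. Both arms of the miR-28 hairpin were lower in males by similar amounts, since miR-28-3p was at -0.48 ± 0.16, although its adjusted p was 0.104.

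**Figure D2:**
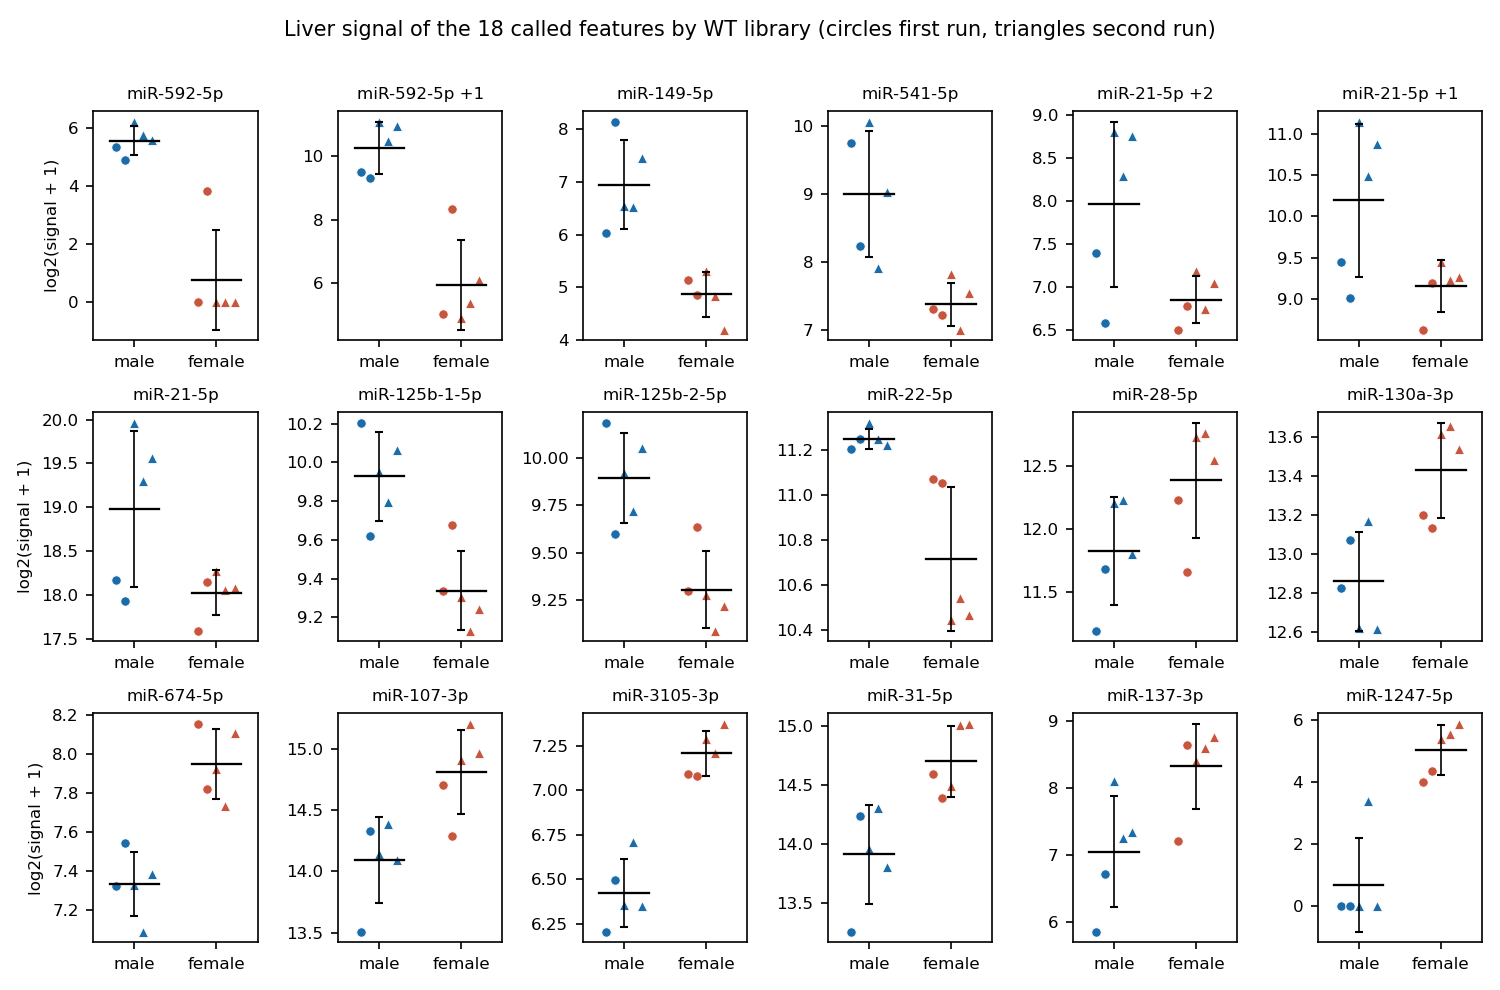
Points are the WT libraries, with log2(signal + 1) on the y axis and the sexes on the x axis; circles mark the first run, triangles the second, and bars the mean and SD of 5 libraries. In 9 of the 18 panels the sexes do not overlap, and for miR-21-5p the first-run males lie among the females.

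For 9 of the 18 called features the 2 sexes did not overlap. Over all 837 tested features this held for 39, or 4.66%, of which 20 were higher and 19 lower in males. Leaving out 1 library could remove most calls. Without WT female 3, 4 or 5, or without WT male 5, 3 features were called, namely both forms of miR-592-5p and miR-149-5p. Without WT female 1 or WT male 3 there were 5 calls, without WT female 2 there were 57, and without WT male 2 there were 41. In the first run, with 2 libraries a sex, the signs of all 18 differences were those of the second run. The difference of miR-592-5p +1 was 2.72 within the first run and 5.37 within the second, and that of miR-130a-3p was -0.22 and -0.80. MiR-149-5p (2.10 and 2.07), miR-541-5p (1.74 and 1.55) and miR-1247-5p (-4.17 and -4.47) had similar values in both runs. The other features lower in males lay between -1.64 and -0.51 in the first run and between -1.02 and -0.60 in the second, and miR-125b-1-5p was at 0.41 and 0.71.

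Most other products of the called hairpins had the sign of the called one. Of 53 tested forms of these 15 hairpins, 18 were called, and 28 of the other 35 had the same sign. For miR-21, the start forms at -1, +3, +4, +5 and +6 and the 3p arm were all higher in males, by 0.60 to 3.45, and none was called. The 3.45 was that of the +6 form, listed at 0 in 4 WT females and 1 WT male, so it depends on the value of 1 added. MiR-137-3p +1 was -3.14 ± 0.99 with every female above every male (adjusted limma p 0.097). The miR-22 hairpin went the other way, with its 5p arm called higher in males and 5 of its 6 tested 3p forms at differences below 0. MiR-31-3p at 0.87 ± 0.63 (SE) and miR-130a-5p at 0.08 ± 0.67 were also opposite in sign to the called arm, and neither was called.

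The ratio of the 2 arms of a hairpin was tested for 137 hairpins, and that of miR-22 alone was called (0.73%). The log2 ratio of 5p to 3p was -7.33, -7.16, -6.83, -6.86 and -7.12 in WT males and -7.62, -8.14, -7.93, -7.62 and -7.72 in WT females. The males were higher in every library, by 0.75 ± 0.16 (SE, adjusted limma p 0.030). With 1 library left out, this call was lost in 7 of the 10 cases. Among 415 ratios of a shifted to an annotated start, 1 was called (0.241%), that of let-7c-1-5p at a shift listed as -1, which was higher in males by 0.56 ± 0.09 (adjusted limma p 0.0045). It was between -9.42 and -9.03 in males and between -9.79 and -9.53 in females on the log2 scale, so the sexes did not overlap. The let-7c copies share their mature sequence, and which locus these reads came from is uncertain. Start-shifted forms as a whole were 3.60% ± 0.35 of the listed signal in males and 3.44% ± 0.20 in females (SD, n = 5 each), a difference of 0.159 points with an exact permutation p of 0.37 when sexes were permuted within run (120 arrangements, two-sided, smallest possible p 0.0167).

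Family members with the same seed did not all move with the called ones. The miR-103 copies share the seed of miR-107-3p and stood at similar levels, yet their differences were -0.19 each with adjusted limma p of 0.41 and 0.42. Of the relatives of miR-130a-3p, miR-130b-3p was at 0.58 ± 0.35 and miR-301a-3p at 0.01 ± 0.27. MiR-708-5p, which has the seed of miR-28-5p, was higher in males by 0.59 ± 0.32, against -0.56 for miR-28-5p, and was not called (adjusted p 0.30). MiR-125a-5p, with the seed of miR-125b-5p, was at 0.18 ± 0.12 (adjusted p 0.43). The differences between relatives were not tested.

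Humanized livers gave the same contrast in other animals. There 4 features were called over all tested (0.478%), namely miR-592-5p at 4.67, its +1 form at 3.46, miR-149-5p at 2.41 and miR-674-5p +1 at -1.27, and the first 3 of them were called in WT as well. All 18 features called in WT had the same sign in the humanized livers, against 68.2% of all tested features. Of the 18, 16 had an unadjusted limma p under 0.05 there, against 13.6% of all features. The difference was smaller than in WT for 17 of the 18, and the 18 had been picked by a threshold in WT. Both contrasts came from one fit with a shared estimate of the spread, so features picked for a small spread kept it in the humanized contrast. The 18 also hold several forms of miR-21-5p, both forms of miR-592-5p and both copies of miR-125b-5p, which are not independent.

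The +1 form of miR-592-5p was at 563, 893, 727, 805, 1029.9 and 848 in humanized males 1 to 6 and 46.1, 36.6, 96.4, 89.0 and 151 in humanized females 1 to 5. MiR-149-5p was at 91.3 to 229.8 in those males and 20.8 to 55.8 in those females. Neither pair of ranges overlapped. MiR-21-5p was at 0.42 within the first run and 0.87 within the second among humanized animals, the same order as in WT. MiR-1247-5p was listed at 0 in 4 of 6 humanized males and at 19.9 and 25.8 in the other two, and was at 10.4 to 22.2 in the females, so the humanized sexes overlapped. A test of whether the sex difference itself changed with genotype called no feature (0%), the smallest adjusted limma p being 0.965. Unadjusted, 25 of 837 features had a limma p under 0.05 in that test, a smaller share than the 0.05 that chance alone would give. Among them were miR-22-5p (0.54 in WT, 0.08 in humanized) and miR-137-3p (-1.27 and -0.20). The WT libraries by which these 2 features were called also enter that test, so it cannot show that their sex difference depends on genotype.

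**Figure D3:**
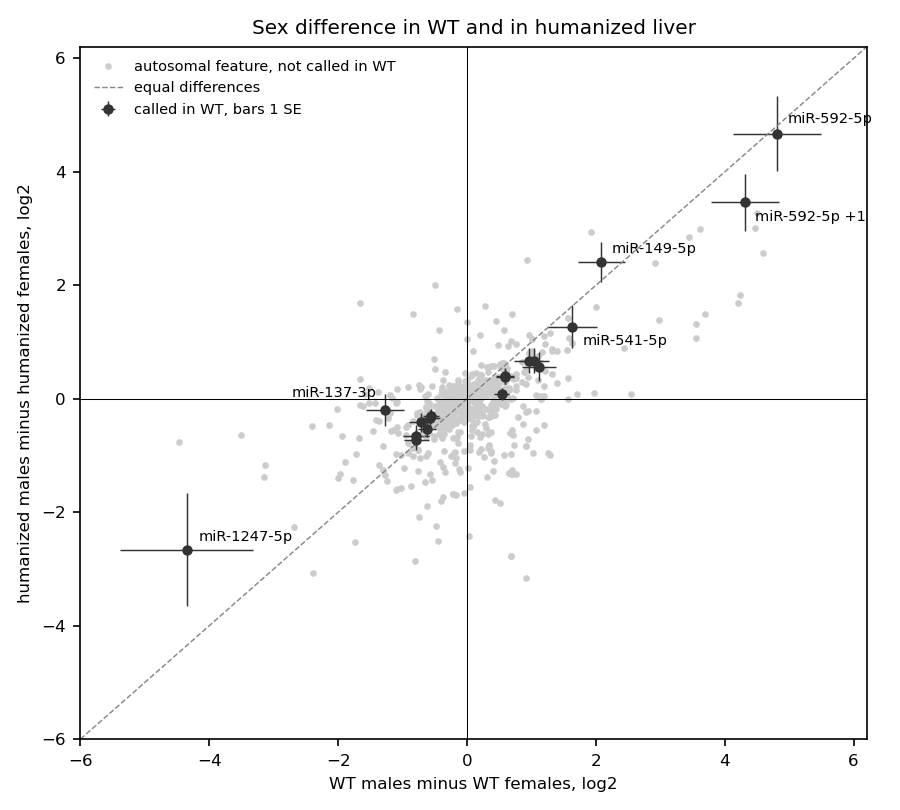
Each point is an autosomal feature, with the sex difference in WT liver on the x axis and that in humanized liver on the y axis, both log2; dark points are the 18 features called in WT, with bars of 1 SE, and the dashed line marks equal differences. The 18 lie in the quadrants of equal sign, and all but miR-149-5p are nearer to 0 in humanized liver.

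Gonadal fat of WT animals served as another tissue, with 4 male and 5 female small RNA libraries. In fat 4.62% of 1298 tested features were called between the sexes. Of the 18 features called in liver, 16 were tested in fat, none was called there and 10 had the sign of liver. The +1 form of miR-592-5p was at 1.23 ± 0.57 (adjusted limma p 0.26), miR-149-5p at 0.38 ± 0.37, and miR-125b-1-5p at -0.38 ± 0.17. Animal tags repeat across tissues, and no difference between tissues was tested.

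Messenger RNA of the genes around the called hairpins was measured in 3 WT liver libraries per sex, in which the first library of each sex was prepared by ribosomal RNA depletion and the others by poly(A) selection. Grm8, which holds miR-592 on the same strand, was at 156, 199.9 and 242 in males and 5.39, 0 and 9.29 in females. The sexes were far apart, by 5.61 ± 0.74 (SE), and the adjusted p was 0.0022 in limma over 15180 genes, of which 4.62% were called. Humanized males were at 188, 178 and 95.3 and humanized females at 17.98, 11.1 and 7.55. Grm8 was the 1 gene called among the 6 tested genes that hold a called hairpin on the same strand.

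Gpc1, the gene around miR-149, was at 1000.5, 1068 and 2244 in WT males and 84.4, 164 and 625 in WT females, a difference of 2.70 ± 0.48 (adjusted limma p 0.013). The strand of miR-149 relative to Gpc1 was not given in the annotation tables used here. Mir22hg, the noncoding host of miR-22, was at 0.99 ± 0.27 (adjusted p 0.066), and Shank2, around miR-3105, was at -1.36 ± 0.39 (adjusted p 0.076). Each had the sign of the called miRNA without passing the threshold. Vmp1, which overlaps miR-21, was at 0.61 ± 0.24 (adjusted p 0.17), Lpp at -0.33 ± 0.16 and Pank1 at -0.32 ± 0.20. Mir100hg, around miR-125b-1, was at -0.25 ± 0.45, opposite in sign to miR-125b-5p. Whether the mRNA and small RNA libraries share animals was not used here, so no correlation was computed.

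**Figure D4:**
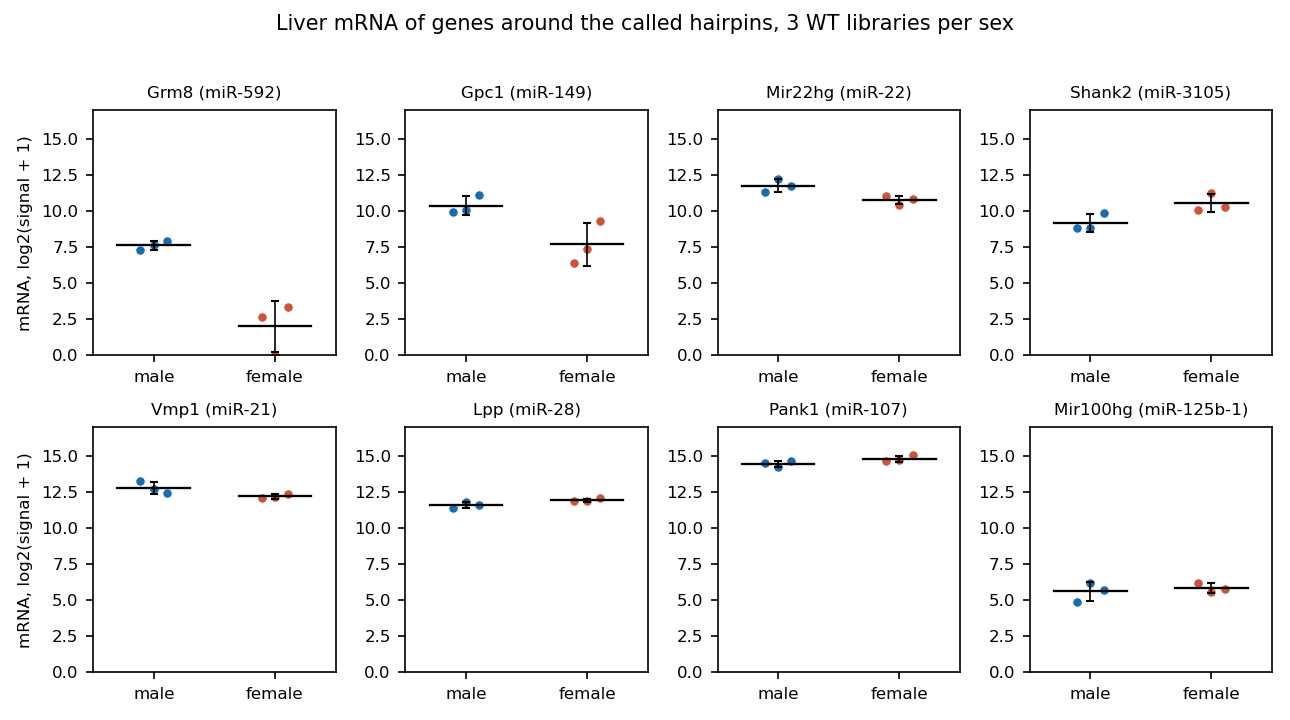
Points are 3 WT liver mRNA libraries per sex for 8 genes around called hairpins, with log2(signal + 1) on a common y axis; bars are the mean and SD. The sexes overlap for Pank1 and Mir100hg and do not for the other genes shown, of which only Grm8 and Gpc1 had an adjusted limma p under 0.05. The share of all tested genes without overlap was not computed.

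The wider miRNA groups were described by their annotated products. Over all 342 autosomal features at the annotated start, 15 were called, the median difference was 0.07 and 189 were above 0. In the Dlk1-Dio3 cluster 19 of 20 tested features were above 0, with a median of 1.60. These features came from 15 of the 46 listed members. Some had little or no signal in WT females, with a mean of 0 for miR-154-3p, miR-543-3p and miR-376b-3p. Such features could hardly fall below 0, and the size of their differences depends on the value of 1 added. One of the 20, miR-541-5p, was called, and 12 had an unadjusted limma p under 0.05, all higher in males, against 82 of the 342, of which 52 were higher. MiR-409-3p was at 1.57 ± 0.46 and miR-134-5p at 2.43 ± 0.73, with adjusted p of 0.089 and 0.094. The summed signal of the 20 features was 6965, 1749.9, 6944, 1548 and 2651 in WT males and between 1051 and 1679 in WT females. WT males 1 and 3 carried the high sums, and WT male 4 lay within the females. Without WT male 1 the median was 1.21 with 6 features higher at that unadjusted p, and without WT male 3 it was 1.28 with 8. MiR-1247-5p, at the end of the same domain, was lower in males.

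The list of 12 hepatocyte miRNAs had 23 tested features, of which miR-21-5p and miR-22-5p were called. Its median was -0.09, and 10 of its features were above 0. MiR-122-5p, the hallmark of hepatocytes, was at -0.03 ± 0.14, and the share of all forms of miR-122 in the listed signal was 47.2% ± 3.5 in WT males (SD, n = 5), with a difference of -0.79 points from the females. The exact permutation p of that difference, within run, was 0.68. The let-7 family had 17 tested features with a median of -0.18, and the miR-30 family 12 with a median of 0.01, and neither had a call. Of 29 tested features of 19 miRNAs reported as sex-biased or growth-hormone-regulated in rodent liver, miR-541-5p was called and 15 were above 0. MiR-802-3p, from a miRNA linked to hepatic insulin resistance, was lower in males by a similar amount in WT (-1.28 ± 0.36, adjusted limma p 0.078) and humanized livers (-1.34). Among 33 features of hepatic lipid and glucose metabolism miRNAs, miR-107-3p was called.

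MiR-1948 had values apart between the sexes that missed the threshold. Its 3p product was at 225, 246, 254, 267 and 204 in WT males and 0, 23.0, 57.5, 0 and 66.5 in WT females. All 5 tested forms had every male above every female, with differences of 3.61 to 4.59 and adjusted limma p of 0.078 to 0.118. These differences rest on zeros, which mean fewer than 10 reads, in 2 to 4 of the 5 females.

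For every set of cell type markers, the range of the summed signal in WT males overlapped that in WT females. Hepatocyte markers were present in every library, and of the neuron and endocrine markers miR-124 was listed at 0 in all 10. The summed signal of 4 fibroblast and stellate markers (miR-143, miR-145a, miR-199a and miR-214) was 211835 in WT male 1 and 36891 to 69146 in the other 9 libraries. Striated muscle markers summed to 5534 in WT male 1 and 310.3 to 1430.0 in the others, with miR-206 listed at 0 in 5 libraries. The 3 erythroid markers summed to 50631, 29716 and 43464 in WT males 1, 3 and 5 and to 10011 to 17759 in the other 7. Biliary and other epithelial markers summed to 23971 to 36425 in males and 17376 to 35796 in females, and immune markers to 15690.0 to 28306 and 15436 to 21829.65. The largest part of the epithelial sum was miR-203, with means of 21944 in males and 19203 in females. The 7 tested features of the miR-200 family summed to 20879 in WT male 1 and to 2683 to 9715 in the other 9 libraries. In such bulk samples fewer cells of a type and less RNA per cell cannot be told apart. Of 12 tested features of the fibroblast list, 5 had an unadjusted limma p under 0.05, all higher in males, and without WT male 1 none did. Among these 5 were miR-199a-1-3p, miR-199a-2-3p and miR-199b-3p, whose values were identical or nearly so and are not independent. Of 5 erythroid features 4 had an unadjusted limma p under 0.05, and 2 without WT male 1. Over the 342 autosomal features at the annotated start the count was 82, of which 52 were higher, and without WT male 1 it was 35 higher and 30 lower. The part of these cells in the differences of miR-541 and miR-125b was not tested.

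**Figure D5:**
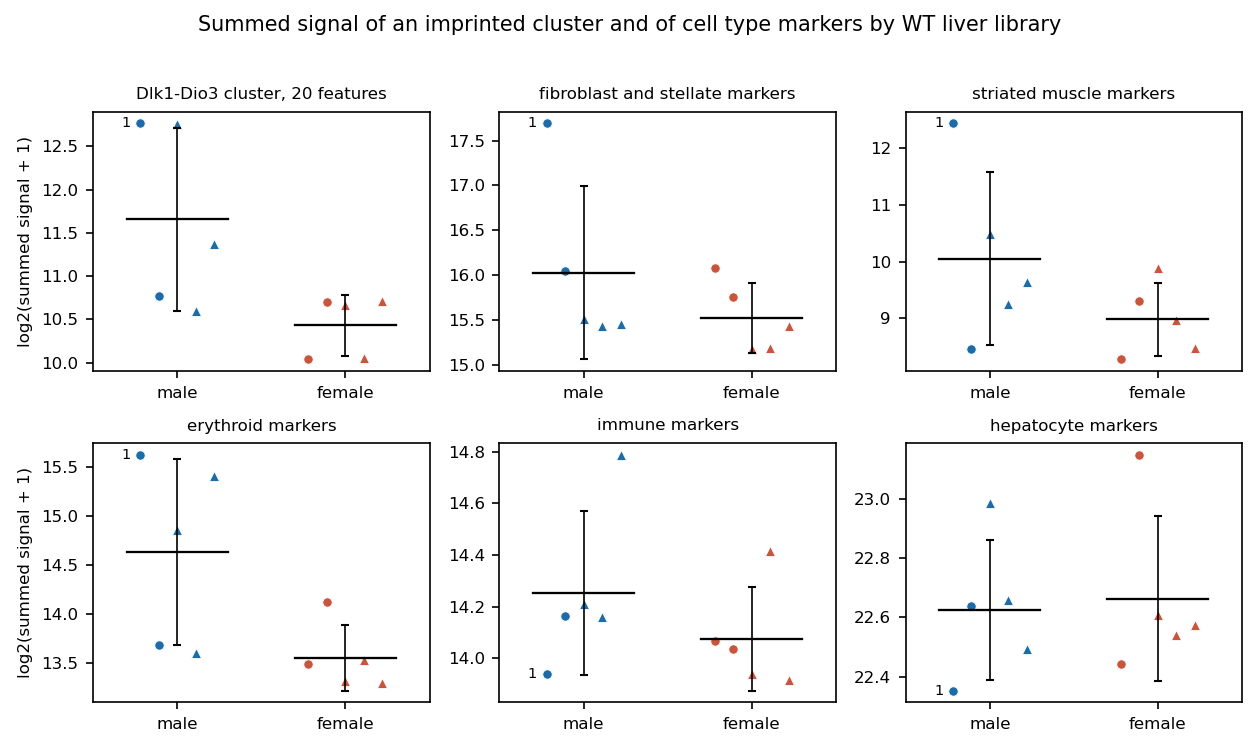
Points are WT liver libraries, with log2 of the summed signal + 1 on the y axis, for the 20 tested Dlk1-Dio3 features and 5 sets of cell type markers; circles are the first run, triangles the second, bars the mean and SD, and 1 marks WT male 1. WT male 1 is far above the other libraries for fibroblast and muscle markers and is the lowest for hepatocyte markers.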

How the data were processed

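Small RNA libraries were made with the TriLink CleanTag kit, per the labels' protocols. STAR, Salmon, DESeq2 and limma and the build mm9 are named per the submitters' processing notes, without versions. The deposited values are a DESeq2-normalized signal by the authors, not counts. Each is a whole multiple of a step particular to its library, the smallest is 10 steps, and the WT libraries held 6622500 to 16647090 such reads; their number limits precision for low features. Differences were computed in R 4.3.3 with limma 3.58.1 (moderated, with trend, two-sided) on log2(signal + 1) over 4 liver groups with run as a covariate, for features with a mean of at least 10, adjusted by Benjamini-Hochberg over all tested. The fit was tested on simulated data. P-values measure the spread between libraries with different animal tags. The mRNA tables deposited by the authors hold DESeq2-normalized signal too and were fitted with preparation as a covariate. An rlog table, on a log2 scale, deposited by the authors, served as an alternative. The members and lists were chosen with earlier results of these data known. Named features were the called ones, the other forms of their hairpins, the 10 most abundant miRNAs and up to 4 members per list by smallest p; relatives by seed, neighbours, miR-1948 and the features just outside the threshold were chosen after their values were seen. Chromosomes and sequences come from RefSeq for GRCm38.p6, so no coordinates are given.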

Additional observations from a re-analysis of the deposited data

Results flagged for a closer look

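In 36 groups of 5 WT libraries (18 called features, each sex), 3 values lay far from the others of their group. Chance alone would mark about 1 group in 20, a rate that does not hold for values listed at 0 below the floor. Where all other values of a group are 0, as for the annotated miR-592-5p and miR-1247-5p, any value above 0 is marked. WT female 2 held 324.14 of miR-592-5p +1 against 28.8 to 67.2 in the other females, still below every male. The same library held 13.3 of the annotated miR-592-5p while the other females were listed at 0. WT male 4 held 9.52 of miR-1247-5p while the other males were listed at 0, a value just above the floor of 10 reads in that library.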

How the results depend on the processing

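The number of calls in WT liver, 18 as reported, varied with the libraries fitted, the run covariate and the scaling. The count was 0 from the 10 WT libraries alone (148 features at an unadjusted limma p under 0.05), 0 from the first run alone (36), 54 from the second run alone (16 shared with the 18), 3 without the run covariate, and 3 to 57 with 1 WT library left out. Equal-sum scaling gave 10 calls, 8 higher and 2 lower, against 10 higher and 8 lower as reported. The count stayed within 17 and 26 with a pseudocount of 10, no filter, a mean of at least 100, TMM scaling and the deposited rlog table. All 18 called features kept their sign under every setting run. Of the other features refitted singly, miR-21-5p -1 was at -0.092 in the first run alone and miR-125a-5p at -0.043 in the second run alone. The most abundant miRNAs with differences near 0, such as miR-122-5p, were not refitted singly, and their sign is not settled. The replicate block, fitted in the 10 WT libraries, gave 0 calls (104 unadjusted), 0 start ratios and 0 arm ratios; correlations of the same-numbered libraries' deviations ran from -0.28 to 0.12 and none of the 5 males matched its own number best, so the numbers were not taken as pairs. Humanized liver gave 12 calls without humanized male 1 and 4 to 12 over all such fits. Start ratios gave 2 calls with a pseudocount of 10, 0 from the WT libraries alone and 1 to 2 with a library left out; arm ratios gave 0 without run, 0 from the WT libraries alone and 0 to 7. Fat gave 57 autosomal calls, 35 without run and 17 to 62 with a library left out. The same-strand host genes gave 1 call, and 1 to 2 with a library left out. A sex-by-run term, added after the data were seen, called 0 features (92 unadjusted). The cause of these changes was not tested. Smaller fits also have fewer residual degrees of freedom. The planned edgeR and DESeq2 fits were not run, since the deposited values are not counts. Features near the floor of 10 reads, miR-1247-5p among them, are limited by depth.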

Other observations

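Several other miRNAs sat just outside the threshold with no overlap between the WT sexes. MiR-152-3p was at 17271 in females and 13076 in males on average, a difference of -0.40 ± 0.11 (SE, adjusted limma p 0.078), and was at -0.38 in humanized livers. MiR-1981-5p was lower in males by a similar amount, at -0.47 ± 0.13, with -0.24 in humanized livers. MiR-30a-3p, the passenger arm of an abundant liver miRNA, was higher in males at 0.35 ± 0.10, and miR-664-3p at 0.95 ± 0.29 (adjusted limma p 0.078 and 0.097).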
